A study of Mus musculus with 12 samples.

Results

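Fatty acid activation, transport and storage was followed through 10 genes: the acyl-CoA synthetases Acsl1, Acsl3 and Acsl5, the uptake and carrier genes Cd36, Fabp5, Slc27a1 and Slc27a4, and the storage and release genes Dgat1, Pnpla2 and Plin3. A gene was represented by a probe set annotated with its symbol alone, and by the one with the highest mean over the 12 arrays where there were several. By this rule 8 of the 10 genes had a probe set, among 22180 named genes and 41345 probe sets, and 7 passed the filter on dim genes and were tested among 14323 genes. Cd36 lay below that filter, and its values come from the same fit without it. Acsl1 and Acsl3 were not analysed here, because in the annotation used no probe set carried Acsl1 and the 1 probe set of Acsl3 also carried Utp14b.

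The study hybridised T cell RNA of mice to 12 Affymetrix arrays of 1 colour, 3 for each of 4 groups. These were CD8 T cells with 50 µM linoleic acid, CD8 T cells of control culture without it, CD4 T cells with 50 µM linoleic acid and CD4 T cells of control culture. Per the sample labels whole splenocytes were in culture for 24 h and the T cells were sorted afterwards, so all groups had shared the dish with other spleen cells, while the design text speaks of isolated T cells. The labels name no strain, age or sex and do not say whether animals were pooled. Nor do they state whether the 3 arrays of a group stem from different animals or dishes. The p-values therefore reflect array-to-array spread alone, and that spread may be technical. The study's stated question was whether the CD4 and the CD8 compartment respond differently to this fatty acid.

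Linoleic acid is a polyunsaturated plant-oil lipid that animals must eat. Such long-chain fatty acids enter cells with the help of CD36 and the SLC27 proteins and are carried in the cytosol by fatty acid binding proteins. Acyl-CoA synthetases then activate them by joining them to coenzyme A, after which they can be oxidised, built into membranes or stored as triglyceride in lipid droplets. DGAT1 makes the triglyceride, perilipins coat the droplet, and PNPLA2 begins its breakdown. T cells use these steps in their change from the resting to the activated state, and memory CD8 T cells of mice are known to draw on stored fatty acids. Several of the genes are known targets of peroxisome proliferator-activated receptors, nuclear receptors that bind fatty acids and recognise repeats of a hexamer half-site.

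Promoter sequences are shown for 3 members, Cd36 and Pnpla2 as genes known to respond to these receptors in mice, and Slc27a1 as the member whose linoleic acid and control arrays separated in CD8 T cells. Each is the 250 bases before an annotated start site in RefSeq on build GRCm38.p6, read 5′ to 3′ on the strand of the gene. The Cd36 window lies at chr5:17835897-17836146 (minus strand), the Pnpla2 window at chr7:141454938-141455187 (plus strand), and the Slc27a1 window at chr8:71570344-71570593 (plus strand), the last of 3 annotated for that gene. Capitals mark matches on either strand to the nuclear receptor half-site AGGTCA, its direct repeat with 1 base between the copies (the DR1 element), the GC box GGGCGG, the CCAAT box CCAAT and the E-box CACGTG.
Cd36: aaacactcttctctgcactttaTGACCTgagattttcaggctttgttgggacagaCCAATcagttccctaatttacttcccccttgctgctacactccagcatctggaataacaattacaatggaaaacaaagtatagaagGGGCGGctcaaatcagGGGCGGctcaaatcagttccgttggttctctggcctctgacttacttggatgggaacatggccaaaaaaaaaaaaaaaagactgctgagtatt
Pnpla2: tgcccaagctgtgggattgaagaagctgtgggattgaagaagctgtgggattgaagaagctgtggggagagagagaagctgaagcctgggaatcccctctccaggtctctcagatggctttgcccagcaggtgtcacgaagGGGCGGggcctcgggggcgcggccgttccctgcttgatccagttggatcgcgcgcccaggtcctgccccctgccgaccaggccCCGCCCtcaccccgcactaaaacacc
Slc27a1: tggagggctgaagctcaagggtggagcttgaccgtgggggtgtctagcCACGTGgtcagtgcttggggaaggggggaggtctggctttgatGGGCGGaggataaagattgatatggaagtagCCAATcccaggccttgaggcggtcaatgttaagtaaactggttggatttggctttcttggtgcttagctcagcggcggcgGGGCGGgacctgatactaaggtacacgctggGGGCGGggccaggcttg

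RefSeq windows were found for 8 of the 10 members, 11 windows in all, and none for Dgat1 and Fabp5. The half-site, which is also part of the direct repeat, had 1 match in the Cd36 window and none in the other 10, and 14% of 32851 mouse promoter windows hold it. The direct repeat had no match in the 11 windows, against 0.0335% of all windows. The GC box was matched in 8 of the 11 windows, at 2 places in Cd36, 2 in Pnpla2 and 3 in the Slc27a1 window shown, and 32.7% of all windows hold it. The CCAAT box was matched in 7 of the 11, once each in Cd36 and in the Slc27a1 window shown, against 33.8% of all windows. The E-box was matched in 1 of the 11, that Slc27a1 window, against 6.02%. Of the 3 Slc27a1 windows the one shown had the most matches, as the first had 1 CCAAT box only and the second 1 GC box only. A match is a run of letters only, and a missing match says only that those letters are not in the window.

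The sorted populations carried their own co-receptor. Cd8a, a chain of the CD8 co-receptor, lay at log2 10.98 to 11.29 in CD8 arrays and 5.01 to 6.82 in CD4 arrays, and Cd4 lay at 5.12 to 6.48 in CD8 arrays and 10.8 to 11.2 in CD4 arrays. Other spleen cells were not absent from the RNA. The B cell marker list, with 11 of 12 genes measured, averaged 6.51 to 6.98 in the 4 arrays numbered 1 and 7.69 to 8.29 in the 8 numbered 2 or 3, and the 10 myeloid markers averaged 4.84 to 5.06 and 5.33 to 5.79 in the same arrays. As a gauge of background, 1394 chemosensory receptor genes, which encode olfactory and vomeronasal receptors, had means with a 95th percentile of log2 5.11. Cd36 (mean 3.92) and Slc27a1 (mean 4.86) lay below this level and the other 6 members above it.

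**Figure D1:**
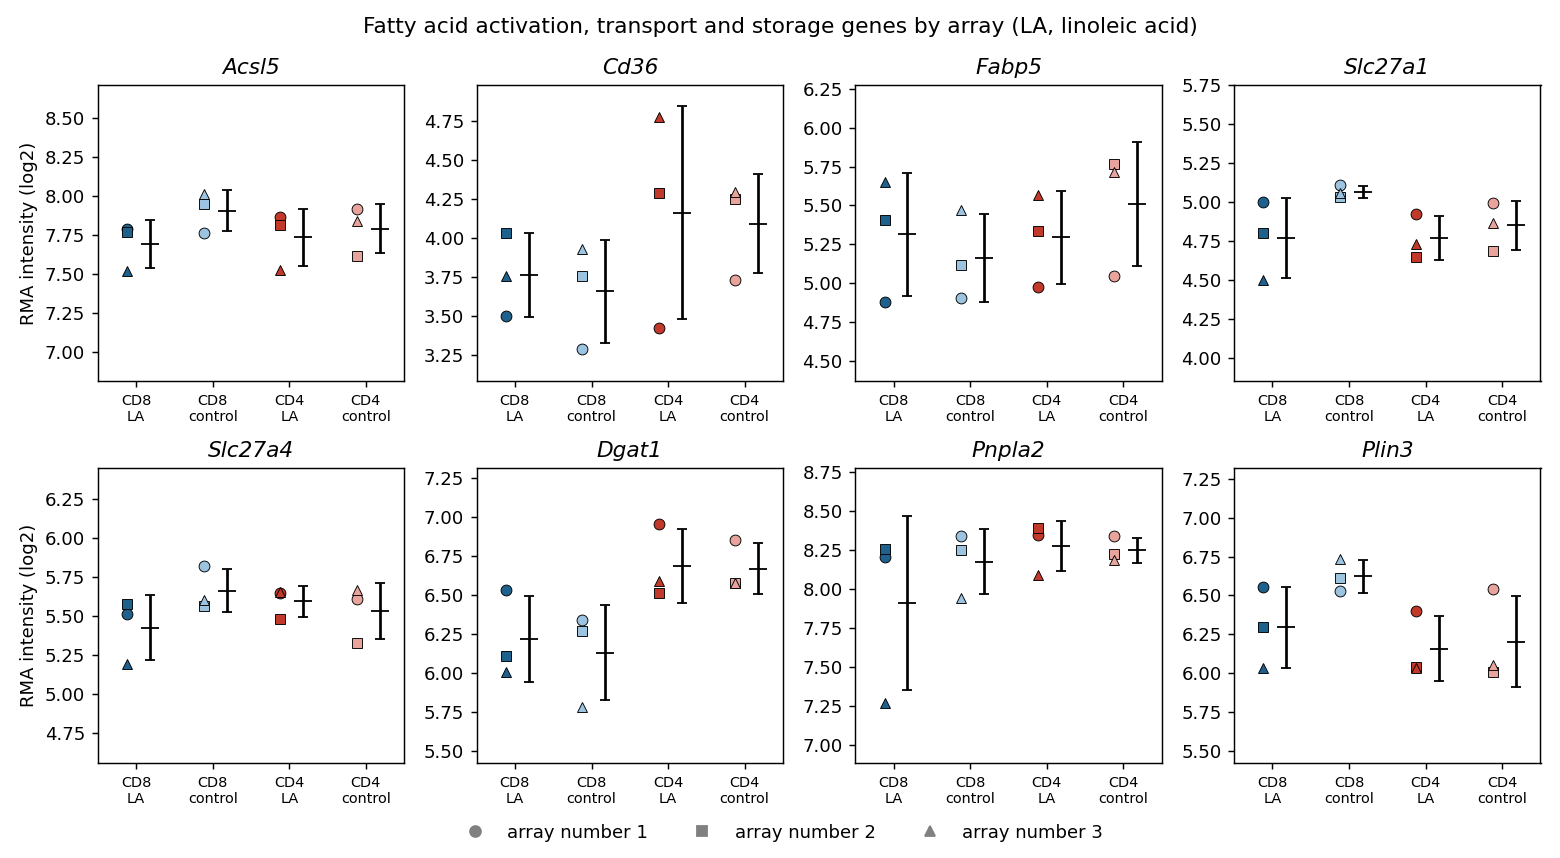
RMA intensity on the log2 scale of the 8 measured members in the 12 arrays, with CD8 groups left of CD4 groups and linoleic acid (LA) left of control. Symbols give the array number of the labels, and bars give the group mean and SD (n = 3); each panel spans the same number of log2 units around its own centre. Dgat1 sits lower in the CD8 arrays, Cd36 and Fabp5 sit lowest in the arrays numbered 1, and Pnpla2 has 1 CD8 linoleic acid array at 7.27.

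No tested member passed the test for a change with linoleic acid. In CD4 T cells 0 passed the limma threshold (adjusted p under 0.05, against 0% of all 14323 genes), in CD8 T cells 0 (against 0%), and in the mean of both 0 (against 0%). At an unadjusted p under 0.05 the counts were also 0, against 2.60%, 5.08% and 4.84% of all genes. With the replicate number as a block 0 members passed in each comparison, against 0.00698%, 0.00698% and 0.182% of genes, and 0, 2 and 1 members had an unadjusted p under 0.05, against 5.61%, 13.5% and 9.75%. Adjusted p without the block was 0.9998 for all 7 in CD4 T cells and 0.757 to 0.900 in CD8 T cells. Cpt1a, which admits acyl-CoA to mitochondrial oxidation and lies outside the set, was 2.52-fold higher with linoleic acid in CD4 T cells and 1.87-fold higher in CD8 T cells in the same fit (limma adjusted p with the block 0.00335 and 0.0507, and 0.845 and 0.757 without it). A smaller amount of RNA per cell and a smaller share of a cell type cannot be told apart in such bulk samples.

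The size of change that the arrays leave room for can be read from the intervals. In CD4 T cells the 95% intervals of the 7 members spanned folds of 0.605 to 1.40, in CD8 T cells 0.603 to 1.58, and for the mean effect 0.733 to 1.26. Against these, the Cpt1a interval ran from 1.78 to 3.58 in CD4 T cells and from 1.32 to 2.65 in CD8 T cells. All of these come from the fit without the replicate block. With the block the CD8 intervals of Slc27a1 (log2 -0.55 to -0.04) and Plin3 (-0.62 to -0.03) lay below 0. So did the Slc27a1 interval of the mean effect (-0.37 to -0.01), and the remaining member intervals crossed 0. The limma adjusted p of these with the block were 0.328, 0.344 and 0.474. The median member differed from control by log2 -0.04 in CD4 T cells, where the median of all tested genes was -0.00, and by -0.24 in CD8 T cells, where it was -0.06. Of the 7 members 4 lay below 0 in CD4 T cells and 5 in CD8 T cells, beside 51.4% and 63.1% of all genes.

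**Figure D2:**
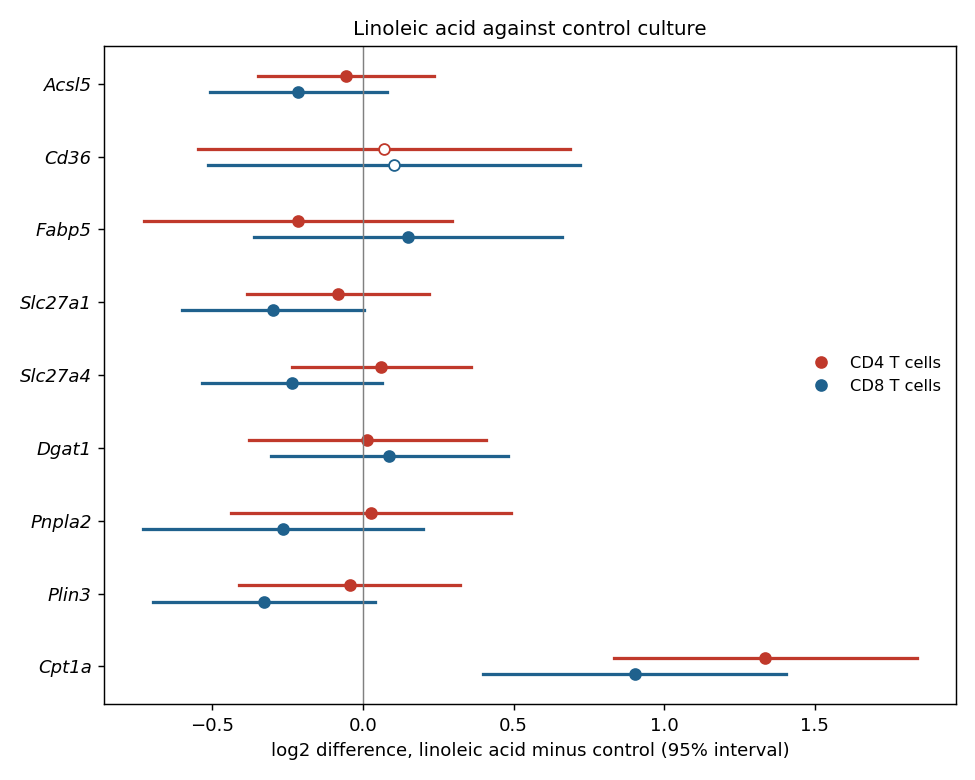
Difference between linoleic acid and control culture (log2, linoleic acid minus control) for each measured member and for Cpt1a, with 95% intervals from limma (3 arrays per group). Open circles mark Cd36, fitted without the filter. Without the replicate block, as drawn, all member intervals cross 0, in CD4 and in CD8 T cells, and both Cpt1a intervals lie above 0.

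Activation of fatty acids was represented by Acsl5 (probe set 17360462), an acyl-CoA synthetase of mitochondria and endoplasmic reticulum. Its log2 values in CD4 T cells were 7.87, 7.81 and 7.53 with linoleic acid, against 7.92, 7.62 and 7.84 in control culture. These arrays overlapped, and the difference was -0.06 ± 0.14 (SE, n = 3 per group). In CD8 T cells it had 7.79, 7.77 and 7.52 with linoleic acid, against 7.76, 7.95 and 8.01 in control culture. Here 2 of the 3 treated arrays lay close to the lowest control array and replicate 3 lay below all controls, with a difference of -0.21 ± 0.14 (limma adjusted p = 0.757).

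Among the uptake genes, Slc27a1 (probe set 17502233), which encodes a fatty acid transport protein best known from muscle and fat, was the member whose culture groups did not overlap. In CD8 T cells its values were 5.001, 4.80 and 4.49 with linoleic acid, against 5.11, 5.03 and 5.06 in control culture. All 3 treated arrays lay below all 3 controls, as they did in 5.70% of all genes, and the highest treated array lay just below the lowest control. The difference was -0.30 ± 0.14 (SE, limma adjusted p = 0.757, and 0.328 with the replicate block), and it stood at -0.16 without CD8 linoleic acid replicate 3. Slc27a1 in CD4 T cells had 4.92, 4.65 and 4.73 with linoleic acid, against 4.99, 4.69 and 4.87 in control culture, groups that overlapped (difference -0.08 ± 0.14).

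Its relative Slc27a4 (probe set 17368904), the transporter best known from intestine and skin, had 5.52, 5.58 and 5.19 in CD8 T cells with linoleic acid, against 5.82, 5.57 and 5.61 in control culture. The treated replicate 3 was the lowest of the 12 arrays, with 1 more below the lowest control and 1 just above it (difference -0.24 ± 0.14, limma adjusted p = 0.757). CD4 T cells had 5.65, 5.48 and 5.66 with linoleic acid, against 5.61, 5.33 and 5.67 in control culture. These overlapped almost fully, with a difference of 0.06 ± 0.14.

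Cd36 (probe set 17445715), the scavenger receptor that takes up fatty acids and oxidised lipoproteins, was dim in every group. Its values were 3.498, 4.04 and 3.76 in CD8 T cells with linoleic acid, against 3.29, 3.76 and 3.93 in control culture. CD4 T cells had 3.42, 4.29 and 4.78 with linoleic acid, against 3.73, 4.25 and 4.30 in control culture. Groups overlapped in both cell types, and the differences were 0.10 ± 0.29 in CD8 and 0.07 ± 0.29 in CD4 T cells (SE).

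Fabp5 (probe set 17396056), a cytosolic carrier that delivers fatty acids to other compartments and to nuclear receptors, had 4.98, 5.34 and 5.57 in CD4 T cells with linoleic acid, against 5.05, 5.77 and 5.71 in control culture. Each treated array lay below the control of its number, although the groups overlapped (difference -0.21 ± 0.24). In CD8 T cells the values were 4.88, 5.41 and 5.65 with linoleic acid, against 4.91, 5.12 and 5.47 in control culture, where 2 of the 3 treated arrays lay above the control of their number (difference 0.15 ± 0.24). The gene has 4 probe sets, and they did not all point the same way. For linoleic acid in CD4 T cells they stood at -0.21, 0.11, -0.13 and -0.21, and in CD8 T cells at 0.15, 0.30, 0.44 and 0.54. All 4 therefore lay above 0 in CD8 T cells, and 3 of 4 below 0 in CD4 T cells. Those not used averaged 4.08, 4.94 and 4.95, below the background level of log2 5.11, and all 4 were read on the same arrays. With the mean of the 4 in place of the brightest, the Fabp5 effect averaged over both cell types was 0.12, where the brightest alone gave -0.03.

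Of the storage and release genes, Pnpla2 (probe set 17484909), the adipose triglyceride lipase that starts the breakdown of stored triglyceride, had 8.21, 8.26 and 7.27 in CD8 T cells with linoleic acid, against 8.34, 8.25 and 7.94 in control culture. The difference of -0.27 ± 0.22 came with 1 low array. Without CD8 linoleic acid replicate 3 it was 0.06. Pnpla2 in CD4 T cells had 8.35, 8.39 and 8.09 with linoleic acid, against 8.34, 8.23 and 8.19 in control culture, an overlap with a difference of 0.03 ± 0.22.

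Plin3 (probe set 17346216), a perilipin that moves from the cytosol onto young lipid droplets, had 6.55, 6.29 and 6.04 in CD8 T cells with linoleic acid, against 6.53, 6.61 and 6.73 in control culture. Treated replicates 2 and 3 lay below all controls and replicate 1 just above the lowest control. Its difference of -0.33 ± 0.17 was the farthest from 0 among the tested members in CD8 T cells (limma adjusted p = 0.757, and 0.344 with the replicate block). CD4 T cells had 6.40, 6.04 and 6.03 with linoleic acid, against 6.54, 6.01 and 6.06 in control culture, groups that overlapped (difference -0.04 ± 0.17).

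Dgat1 (probe set 17318502), which adds the last acyl chain in triglyceride synthesis, had 6.96, 6.51 and 6.59 in CD4 T cells with linoleic acid, against 6.86, 6.58 and 6.57 in control culture. In CD8 T cells it had 6.53, 6.11 and 6.01 with linoleic acid, against 6.34, 6.27 and 5.78 in control culture. Culture groups overlapped in both cell types, with differences of 0.02 ± 0.18 in CD4 and 0.09 ± 0.18 in CD8 T cells.

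Much of the lower position of members in CD8 T cells with linoleic acid lay in 1 array. CD8 linoleic acid replicate 3 was the lowest of all 12 arrays for Acsl5, Slc27a1, Slc27a4 and Pnpla2. Chemosensory receptor genes averaged 3.46 on it, the top of a range that began at 2.99 in CD4 control replicate 1. Without it the median member stood at -0.12 in CD8 T cells, in place of -0.24, and the median of all genes at -0.03. Plin3 then stood at -0.20, Acsl5 at -0.13, Slc27a4 at -0.12, Fabp5 at -0.02 and Dgat1 at 0.19, each with a limma adjusted p of 0.9997. The part of this array's background in these values was not tested.

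The effects of linoleic acid in the 2 cell types were then compared with each other, as CD4 minus CD8. No member of the 7 passed (0 in limma, against 0% of all genes, and 0 at an unadjusted p under 0.05, against 2.35%). With the block 0 passed, against 0%, and 1 had an unadjusted p under 0.05, against 8.30%. Of the 7 differences 5 lay above 0 and 2 below, and 42.9% of all genes lay below. The lowest was Fabp5 at -0.37 ± 0.34 and the highest Slc27a4 at 0.30 ± 0.20 (SE, limma adjusted p = 0.953 for both). The intervals reached from a fold of 0.470 to one of 1.93. The median member stood at 0.21, beside 0.04 for all genes, and at 0.07 without CD8 linoleic acid replicate 3.

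CD8 and CD4 T cells differed in 1 of the 7 tested members, Dgat1, which was lower in CD8 T cells. In control culture its values were 6.34, 6.27 and 5.78 in CD8 T cells, against 6.86, 6.58 and 6.57 in CD4 T cells, and all 3 CD8 arrays lay below all 3 CD4 arrays, as in 7.53% of genes. In linoleic acid culture they were 6.53, 6.11 and 6.01 in CD8 T cells, against 6.96, 6.51 and 6.59 in CD4 T cells, and the groups overlapped by a single CD8 array at 6.53 just above the lowest CD4 array at 6.51. Within each number CD8 lay below CD4, by differences of -0.52, -0.31 and -0.79 in control culture and of -0.43, -0.40 and -0.58 in linoleic acid culture. Between the control groups the numbers were not taken as pairs, so the differences by number there are a description only. Averaged over both cultures the difference was log2 -0.51 ± 0.13 (SE), a fold of 0.705 with a 95% interval of 0.581 to 0.855 (limma adjusted p = 0.0389). This was 1 of 7 members past the threshold, beside 4.71% of all genes, and 2 had an unadjusted p under 0.05, beside 14.4%. That fit counted the control and linoleic acid arrays of a number as separate arrays, although such arrays were taken as pairs. With the arrays of a number and cell type averaged, Dgat1 did not pass (limma adjusted p = 0.211).

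The Dgat1 difference was nearly the same size in each culture but, without the replicate block, did not pass in either alone. It stood at -0.54 ± 0.18 in control culture (limma adjusted p = 0.241) and at -0.47 ± 0.18 in linoleic acid culture (adjusted p = 0.314, and 0.0331 with the replicate block). In control culture 0 of 7 members passed in limma, against 1.95% of genes, with 2 at an unadjusted p under 0.05, against 9.37%. With linoleic acid 0 passed, against 2.03%, with 1 at an unadjusted p under 0.05, against 11.8%, and 1 passed with the block, against 5.57%.

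The call on Dgat1 over both cultures was near the threshold. It passed in 8 of 20 alternatives, with adjusted p from 0.000915 to 0.211, and in every one of them the value lay below 0. Leaving out single arrays gave values of -0.58 to -0.42. The call held without CD8 linoleic acid replicate 1 (adjusted p = 0.0148), CD8 control replicate 1 (0.0396) or CD4 linoleic acid replicate 2 (0.0498). It ended without CD8 linoleic acid replicate 2 (0.101) or 3 (0.0784), CD8 control replicate 2 (0.0545) or 3 (0.09999), CD4 linoleic acid replicate 1 (0.0977) or 3 (0.0584), and CD4 control replicate 1 (0.0946), 2 (0.0635) or 3 (0.0621). Without the 4 arrays numbered 1 the difference was -0.52 (adjusted p = 0.0382).

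B cell markers moved beside this difference. Their list mean was lower in the CD8 array than in the CD4 array of the same number in 6 of 6 cases, with differences of -0.47, -0.36 and -0.40 in linoleic acid culture and of -0.37, -0.41 and -0.21 in control culture. Myeloid markers were lower in 5 of 6 cases, with differences of -0.17, -0.13 and 0.08 in linoleic acid culture and of -0.19, -0.26 and -0.25 in control culture. Across array numbers the order was the other way round: Dgat1 averaged 6.67 in the arrays numbered 1, where B cell markers were lowest, 6.37 in those numbered 2 and 6.24 in those numbered 3. The part of other cells in the Dgat1 difference was not tested.

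**Figure D3:**
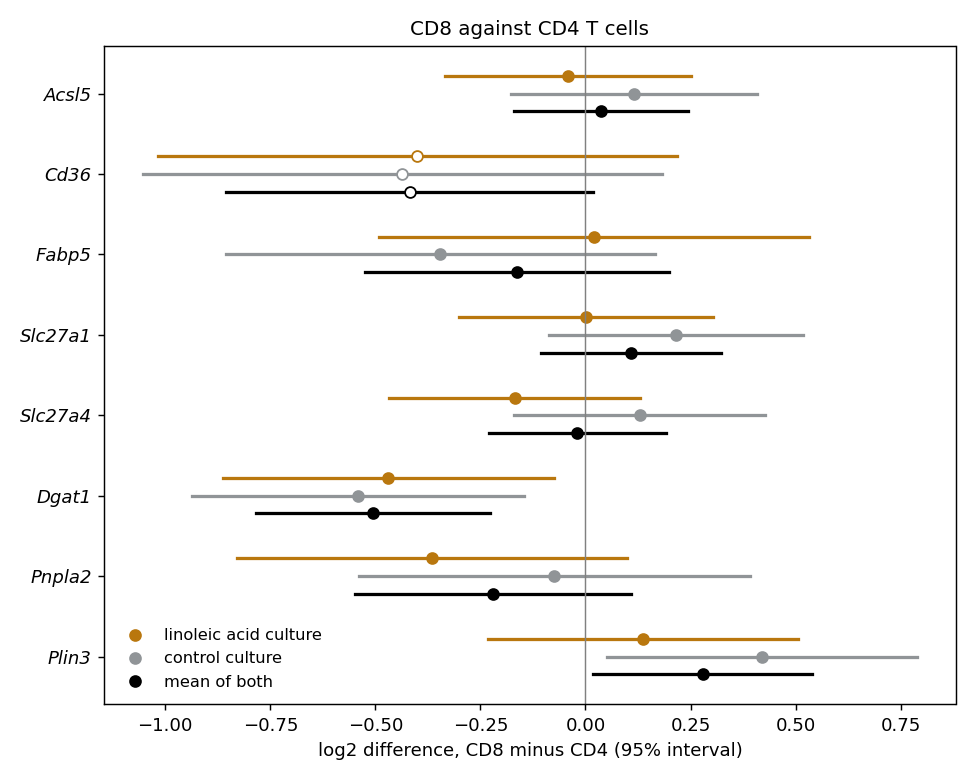
Difference between CD8 and CD4 T cells (log2, CD8 minus CD4) for the 8 measured members in linoleic acid culture, in control culture and in the mean of both, with 95% intervals from limma. Open circles mark Cd36, fitted without the filter. The 3 Dgat1 intervals lie below 0, and the Plin3 intervals for control culture and for the mean lie above it without passing the adjusted threshold.

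Plin3 stood on the other side. In control culture it had 6.53, 6.61 and 6.73 in CD8 T cells, against 6.54, 6.01 and 6.06 in CD4 T cells, where 2 CD8 arrays lay above all CD4 arrays and the third just below the highest of these. In linoleic acid culture it had 6.55, 6.29 and 6.04 in CD8 T cells, against 6.40, 6.04 and 6.03 in CD4 T cells, with overlap. Its difference was 0.42 ± 0.17 in control culture, 0.14 ± 0.17 in linoleic acid culture and 0.28 ± 0.12 in the mean of both (limma adjusted p = 0.397, 0.815 and 0.300), with CD8 above CD4 at 5 of 6 numbers and cultures.

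The remaining members did not pass between the cell types. Slc27a1 had 5.11, 5.03 and 5.06 in CD8 T cells of control culture, against 4.99, 4.69 and 4.87 in CD4 T cells. These did not overlap, as for 8.52% of genes, and the difference was 0.22 ± 0.14 (limma adjusted p = 0.760), for a gene with a mean below the background level. With linoleic acid the Slc27a1 difference was 0.00 ± 0.14. Over both cultures Acsl5 stood at 0.04 ± 0.10, Slc27a4 at -0.02 ± 0.10, Fabp5 at -0.16 ± 0.17 and Pnpla2 at -0.22 ± 0.15 (limma adjusted p of 0.610 to 0.970). The 95% intervals of these 4 reached from a fold of 0.684 for Pnpla2 to one of 1.18 for Acsl5. Pnpla2 without CD8 linoleic acid replicate 3 stood at -0.06. The 4 Fabp5 probe sets stood at -0.16, -0.07, -0.43 and -0.45 over both cultures, where the first is the one used. In control culture they stood at -0.35, -0.17, -0.72 and -0.82, all below 0 but of unequal size. The Fabp5 probe sets not used averaged below the background level of log2 5.11.

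Cd36 lay lower in CD8 than in CD4 T cells without passing the test. It had a difference of -0.44 ± 0.29 in control culture, of -0.40 ± 0.29 in linoleic acid culture and of -0.42 ± 0.20 in the mean of both (SE, limma adjusted p = 0.512 without the filter), with CD8 below CD4 at 5 of 6 numbers and cultures. Besides uptake of fatty acids in muscle, fat and macrophages, CD36 is known on platelets and on marginal zone B cells of mice. The platelet marker list, with 5 of 6 genes measured, averaged 4.90 to 5.06 in the CD8 arrays and 5.11 to 5.27 in the CD4 arrays. Of these genes only Itgb3, an integrin chain, separated the cell types, at 5.87 to 6.59 in the CD8 arrays and 7.29 to 7.69 in the CD4 arrays. Pf4, Ppbp, Itga2b and Gp9 overlapped, and Pf4 and Ppbp lay below log2 5.11 on average. The 5 marginal zone B cell markers averaged 5.22 to 5.64 in the CD8 arrays and 5.02 to 5.71 in the CD4 arrays. Their part in the Cd36 values was not tested.

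The array number went with Cd36 and Fabp5 more visibly than the culture did. Cd36 lay at 3.29 to 3.73 in the 4 arrays numbered 1 and at 3.76 to 4.78 in the other 8, and Fabp5 lay at 4.88 to 5.05 and at 5.12 to 5.77 in the same arrays. For both genes no array numbered 1 reached the others, for Cd36 by a narrow margin (3.731 against 3.756) below the background level of log2 5.11. The Fabp5 values in the arrays numbered 1 lay below that level too. The share of all genes that split in this way was not counted, so the split is a description only. B cell markers split the arrays in the same way, at 6.51 to 6.98 in the arrays numbered 1 and 7.69 to 8.29 in the others, as did myeloid markers. The chemosensory receptor genes also averaged less in the arrays numbered 1, at 2.99 to 3.152, than in the others, at 3.153 to 3.46. The T cell list ran the other way, at 10.11 to 10.23 in the arrays numbered 1 and 9.78 to 10.09 in the others. The red pulp macrophage list averaged 4.27 to 4.46 in the arrays numbered 1 and 4.31 to 4.69 in the others, and the dendritic cell list 4.53 to 4.57 and 4.54 to 4.80, both with overlap. The marginal zone B cell list averaged 5.02 to 5.36 and 5.37 to 5.71, without overlap. The labels do not say what a number marks, and its part in these values was not tested.

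**Figure D4:**
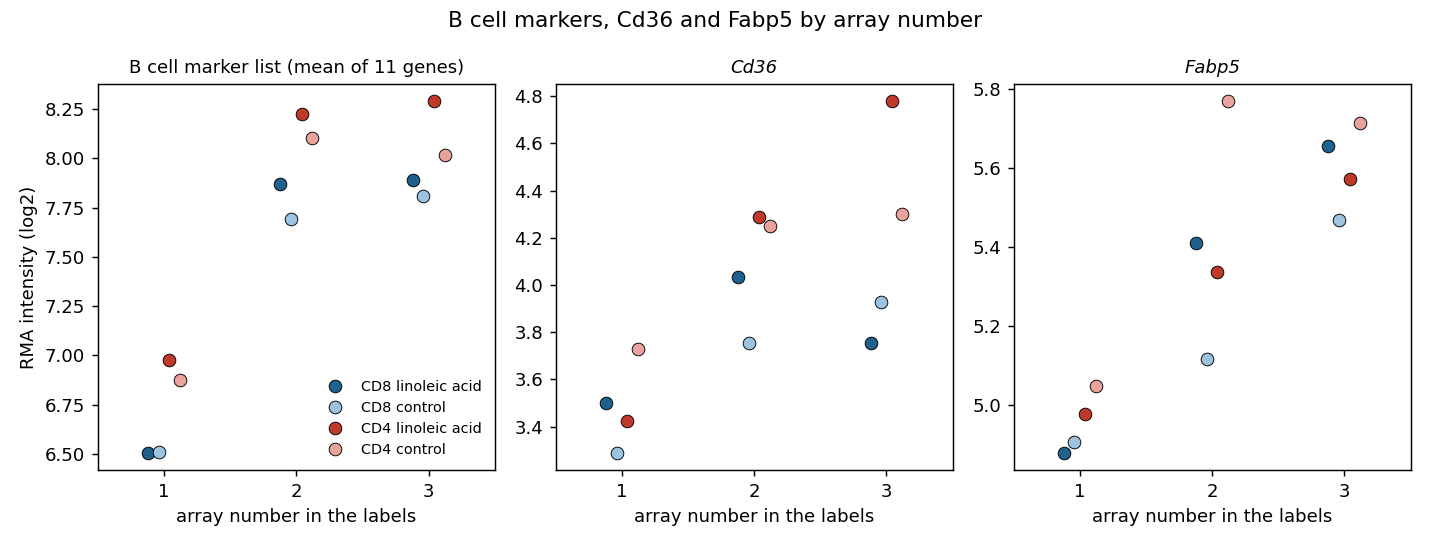
Mean of 11 B cell markers, Cd36 and Fabp5 (RMA intensity, log2) in the 12 arrays, placed by the array number of the labels and coloured by group. Each panel has its own axis. In all 3 panels the arrays numbered 1 lie below those numbered 2 and 3.

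The other 6 measured members did not split by number in this way. Slc27a1 averaged 5.01 in the arrays numbered 1, 4.79 in those numbered 2 and 4.79 in those numbered 3, and Plin3 averaged 6.50, 6.24 and 6.21 in the same order. Pnpla2 averaged 8.31, 8.28 and 7.87, with its lowest array among those numbered 3. Ranges over the 12 arrays ran from 0.50 log2 units for Acsl5 to 1.49 for Cd36. For Acsl5 the group means lay within 0.21 of each other, close to the largest SD within a group (0.18), while for Dgat1 they spread over 0.56, beside a largest SD of 0.30.

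The members belong to longer pathways, and 69 further genes of them were listed, of which 64 had a probe set and 46 were tested. With linoleic acid 0 of the 46 passed in limma in CD4 T cells, in CD8 T cells and in the mean of both, 3 in each had an unadjusted p under 0.05, and 0 passed with the replicate block. Over all genes the shares at an unadjusted p were 2.60%, 5.08% and 4.84%, and with the block 0.00698%, 0.00698% and 0.182%. Genes of glycerolipid and sterol ester synthesis lay below control for 11 of 12 in the mean of both cell types (median -0.08), acyl-CoA synthesis, binding and hydrolysis genes for 9 of 12 (median -0.07), and uptake, carrier and lipoprotein genes for 3 of 4 (median -0.08). Lipid droplet and lipolysis genes lay below control for 10 of 18 (median -0.02). The median of all tested genes was -0.04, and 63.1% of them lay below 0.

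Plin2, the perilipin that coats most droplets outside fat tissue, had 5.52, 5.59 and 6.06 in CD8 T cells with linoleic acid, against 5.23, 5.28 and 5.50 in control culture. All treated arrays lay above all controls in CD8 T cells, as for 3.32% of all genes, although replicate 1 was close to the highest control (difference 0.39 ± 0.15, limma adjusted p = 0.757). Plin2 in CD4 T cells had 5.71, 5.72 and 5.97, against 5.59, 5.72 and 5.62 in control culture, and the mean effect was 0.27 ± 0.10 (adjusted p = 0.925). Agpat5, an enzyme that makes phosphatidic acid, stood at -0.27 in CD4 and -0.19 in CD8 T cells, with a mean effect of -0.23 ± 0.07 (adjusted p = 0.925). Its values were 6.08, 6.04 and 6.04 in CD4 T cells with linoleic acid, against 6.33, 6.27 and 6.38 in control culture. CD8 T cells had 6.05, 5.95 and 6.01 with linoleic acid, against 6.25, 6.14 and 6.20 in control culture, and neither cell type showed overlap, as in this direction for 4.52% of all genes in CD4 and 5.70% in CD8 T cells.

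Others named by the rule stood as follows. Gpihbp1, which anchors lipoprotein lipase in capillaries, had a mean effect of 0.26 ± 0.10, and the acyl-CoA binding protein gene Dbi one of -0.19 ± 0.09. In CD4 T cells the lipid droplet genes Pnpla3 and Plin4 stood at -0.32 and -0.30. In CD8 T cells Cidec, which fuses droplets, stood at 0.33, the acyl-CoA thioesterase gene Acot2 at -0.26, the acyl-CoA synthetase gene Acsl6 at 0.24 and Agpat4 at -0.42. Scarb1, the receptor for high density lipoprotein, stood at -0.17 in CD8 T cells, Fabp3, a fatty acid binding protein of heart and muscle, at a mean effect of -0.12 and Agpat2 at one of -0.15. Every group mean of Gpihbp1, Pnpla3, Plin4, Cidec and Acsl6 lay below the background level of log2 5.11. All of these values had a limma adjusted p of 0.757 or more.

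The difference of the effects between the cell types passed for 0 of the 46 in limma, against 0% of all genes, with 1 at an unadjusted p under 0.05, against 2.35%.

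Between the cell types 2 of the 46 further genes passed in the mean of both cultures, 1 higher and 1 lower in CD8 T cells, beside 1.95% and 2.76% of all genes. Lipa, the lysosomal acid lipase that frees fatty acids from lipoprotein lipids, was lower in CD8 T cells. It had 9.45, 9.33 and 9.26 in CD8 T cells of control culture, against 10.08, 9.63 and 9.56 in CD4 T cells. In linoleic acid culture it had 9.47, 9.20 and 8.98 in CD8 T cells, against 10.15, 9.85 and 9.78 in CD4 T cells. All CD8 arrays lay below all CD4 arrays of the same culture, as for 8.98% of all genes with linoleic acid and 7.53% in control culture, and the difference was -0.56 ± 0.12 (fold 0.678, limma adjusted p = 0.0111). It passed in 19 of 20 alternatives, and ended where the cultures of a number were averaged (adjusted p = 0.115). In linoleic acid culture alone Lipa stood at -0.71 ± 0.17 (adjusted p = 0.0407, and 0.000714 with the block), a call that passed in 6 of 14 alternatives. It held without CD8 linoleic acid replicate 1 (0.0228) and ended without CD4 linoleic acid replicate 1 (0.182), 2 (0.118) or 3 (0.0645) or CD8 linoleic acid replicate 2 (0.128) or 3 (0.149). Lipa is known to be high in macrophages. The myeloid markers given above were lower in CD8 arrays at 5 of 6 numbers and cultures. At number 3 of linoleic acid culture they were higher in CD8 by 0.08, where Lipa had 8.98 in CD8 and 9.78 in CD4 T cells. Across array numbers the order was the other way round. In each group Lipa was highest in the array numbered 1, where myeloid markers were lowest. The part of other cells in the Lipa difference was not tested.

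Agpat4, which like Agpat5 makes phosphatidic acid, was higher in CD8 T cells. In linoleic acid culture it had 5.38, 5.18 and 5.33 in CD8 T cells, against 5.13, 5.17 and 4.50 in CD4 T cells. In control culture it had 5.42, 5.94 and 5.81 in CD8 T cells, against 4.64, 5.30 and 4.68 in CD4 T cells. The cell types did not overlap in linoleic acid culture, by a narrow margin (5.183 against 5.166), or in control culture, as for 6.31% and 8.52% of all genes in this direction. The mean difference was 0.61 ± 0.15 (limma adjusted p = 0.0296). The CD4 means, 4.93 with linoleic acid and 4.87 in control culture, lay below the background level of log2 5.11, so no fold is given. The fit behind the call counted the control and linoleic acid arrays of a number as separate arrays. The call held in 10 of 20 alternatives (adjusted p from 0.00450 to 0.120). At the highest of these adjusted p the call ended with no array left out. Among single arrays it ended without CD8 linoleic acid replicate 1 (0.0545), 2 (0.0504) or 3 (0.0524), CD8 control replicate 2 (0.0860) or 3 (0.0762), CD4 linoleic acid replicate 3 (0.0653) and CD4 control replicate 1 (0.0742) or 3 (0.0828), and it also ended without the 4 arrays numbered 1 (0.0602).

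The further genes Acsf2, Bscl2, Acsbg1 and Gpat4, named by the rule, did not pass. In the mean of both cultures the acyl-CoA synthetase family genes Acsf2 and Acsbg1 stood at 0.35 ± 0.12 and 0.25 ± 0.08, the droplet biogenesis gene Bscl2 at 0.35 ± 0.10 and the glycerol phosphate acyltransferase gene Gpat4 at -0.22 ± 0.10. Their limma adjusted p lay between 0.0723 and 0.301.

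**Figure D5:**
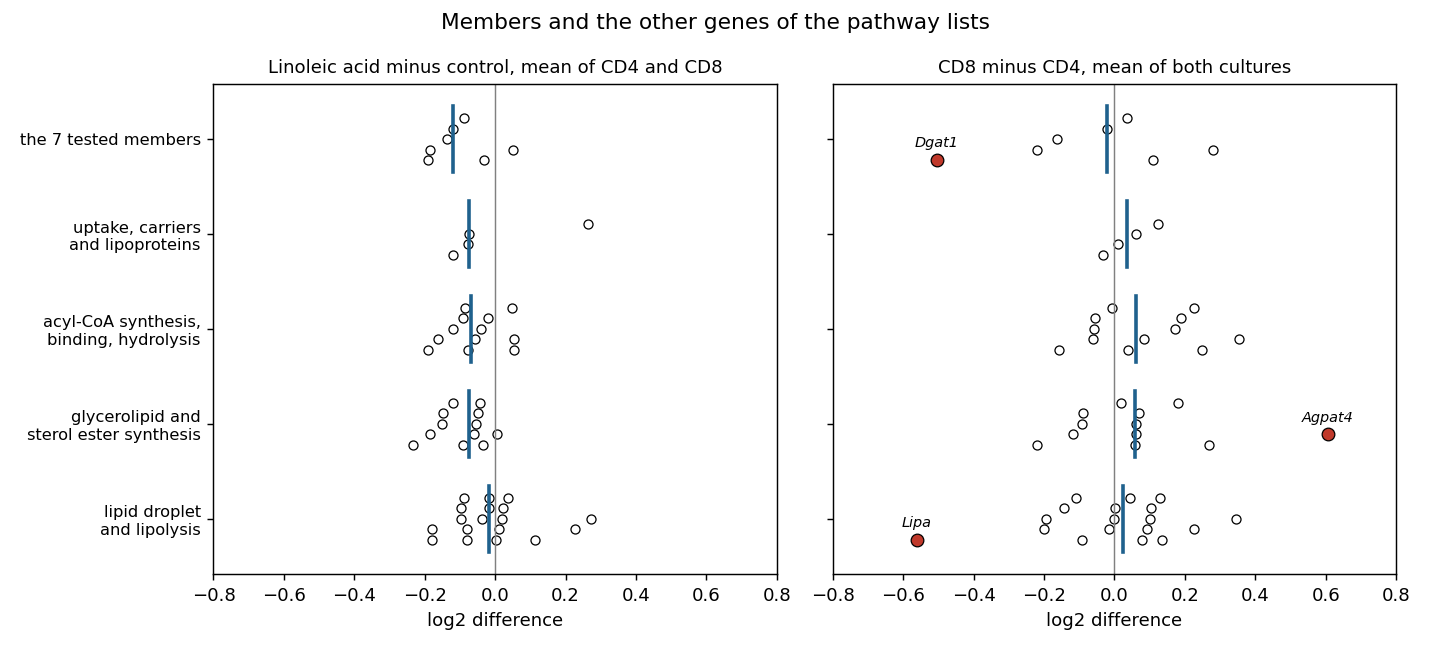
Differences (log2) of the 7 tested members and of the 46 further tested pathway genes, for linoleic acid minus control in the mean of both cell types (left panel) and for CD8 minus CD4 in the mean of both cultures (right panel). Each point is a gene, vertical lines are list medians, and filled points passed the limma threshold. No point passes in the left panel, and Dgat1, Lipa and Agpat4 pass in the right panel.

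For the 3 members that ranged over more than 1 log2 unit across the 12 arrays, the tested genes with the most similar profile were found by the root mean square difference after each gene was centred on its own mean. Dgat1 was closest to Cd28 (0.125), Mtmr10 (0.135) and Letm2 (0.137), where the median over 14322 genes was 0.355 and the deviation of Dgat1 itself 0.327. Pnpla2 was closest to Fam168b (0.0710), Khdrbs1 (0.0859) and Lrp10 (0.0872), with a median of 0.321 and its own deviation of 0.292. Cd36 was closest to Ifitm3 (0.178), Mzb1 (0.182) and Dok3 (0.193), with a median of 0.470 over 14323 genes and its own deviation of 0.413. These 12 arrays share their cell types, cultures and array numbers, so the ranking is a description.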

How the data were processed

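The authors' deposited values were log2 intensities of 41345 probe sets on 12 arrays, made with RMA per the submitters' processing notes. RMA subtracts a background, brings the arrays to 1 distribution and combines each set's probes. This is meant to remove differences between arrays in total signal. The array medians of the deposited values still ran from log2 4.66 to 4.80. The sources used here name no software version or genome build. The values were taken as deposited. Of the probe sets 23521 carried a single symbol in the platform annotation, 1814 several and 16010 none, and 1082 of the 22180 named genes had more than 1.

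A gene was tested if its mean reached log2 4.28, the 40th percentile of probe set means. Group means were compared in limma 3.58.1 (R 4.3.3, lmFit and eBayes, two-sided) on the 12 arrays together without a block (residual degrees of freedom 8, prior 5.67), and p-values were adjusted after Benjamini and Hochberg over 14323 genes, with a threshold of 0.05. The same steps were tested on simulated data with 200 changed genes. The simulated arrays were independent and the planted changes were larger than any member difference. That check therefore says nothing about changes of the size seen in the members. Contrasts set linoleic acid against control, these effects against each other, and CD8 against CD4 T cells. The number of arrays limits the precision.

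All members were described. Further pathway genes were named if they passed, or as the 2 with the smallest p of each list for linoleic acid and for CD8 against CD4 T cells over both cultures. For members ranging over more than 1 log2 unit the 3 genes of most similar profile were named. The members and lists were chosen with earlier results of these data known.

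The labels number the arrays 1 to 3 in each group. To see whether a number pairs arrays, deviations from the group means were correlated between arrays of the same number. The correlations were 0.61, 0.19 and 0.32 between the CD4 groups, 0.43, 0.19 and 0.42 between the CD8 groups and 0.58, 0.26 and 0.52 between the linoleic acid groups, so the numbers were taken as pairs there, on the evidence of the values alone. Between the control groups they were 0.54, -0.01 and 0.42, and because of number 2 the numbers were not taken as pairs. The pairs taken elsewhere would link the control arrays of a number as well, so whether these are paired is not settled. Counts of CD8 against CD4 by number that include control culture are therefore a description only.

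Alternatives were the replicate block, no filter or one at the 60th percentile, the mean of all probe sets of a gene, arrays centred on their medians, eBayes with trend and robust, fits of 2 groups, averaged arrays, and arrays left out singly or, for the number 1, together.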

Additional observations from a re-analysis of the deposited data

How the results depend on the processing

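No member passed for linoleic acid in CD4 T cells, in CD8 T cells, in their mean or in the difference between them, in limma without the block and under each alternative run. The replicate block moved the counts over all genes to 1 for linoleic acid in CD4 T cells, 1 in CD8 T cells and 26 in their mean, against 0 in each without it. For CD8 against CD4 T cells the block gave 798 genes in linoleic acid culture, 630 in control culture and 1322 over both, against 291, 280 and 674 without it, and 1 member, Dgat1, in each culture (adjusted p = 0.0331 and 0.0159). Of the 46 further pathway genes 3 then passed as higher and 1 as lower over both cultures, Acsf2 (0.00790) and Bscl2 (0.00770) in addition to Agpat4 and Lipa. With the arrays numbered 1 left out, 1 gene passed for linoleic acid in CD4 T cells and 1 in the mean. Over both cultures 0 members passed between the cell types with no filter (Dgat1 adjusted p = 0.0611), with arrays centred on their medians (0.0562) and with averaged arrays (0.211), where 316 genes passed, a fit with fewer samples. Linoleic acid culture fitted on its 2 groups gave 138 genes. Leaving out single arrays gave 150 to 322 genes in linoleic acid culture, 176 to 223 in control culture, 0 to 1 members over both cultures and 0 to 1 genes for the mean linoleic acid effect.

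Of 378 values of members under the other alternatives 7 turned in sign. The mean of probe sets gave Fabp5 0.12 for the mean linoleic acid effect and -0.043 for CD8 against CD4 T cells in linoleic acid culture, and centring gave -0.0098 for the same comparison. Slc27a1 stood there at -0.028 after centring and at -0.039 without the arrays numbered 1, which also gave -0.028 for Dgat1 and 0.00305 for Plin3 for linoleic acid in CD4 T cells. Of 420 values with an array left out 45 turned, all of effects that had not passed. The ranges below include the pathway gene Scarb1. For linoleic acid in CD4 T cells the ranges were -0.14 to 0.047 for Acsl5, -0.042 to 0.13 for Slc27a4, -0.12 to 0.11 for Dgat1, -0.032 to 0.12 for Pnpla2 and -0.17 to 0.12 for Plin3. In CD8 T cells they were -0.019 to 0.37 for Fabp5, -0.087 to 0.19 for Dgat1, -0.44 to 0.055 for Pnpla2 and -0.31 to 0.061 for Scarb1. For the mean effect they were -0.15 to 0.076 for Fabp5, -0.036 to 0.10 for Dgat1 and -0.21 to 0.040 for Pnpla2, and for the difference of effects -0.21 to 0.10 for Dgat1 and -0.030 to 0.46 for Pnpla2. For CD8 against CD4 T cells they were -0.15 to 0.046 for Acsl5, -0.15 to 0.24 for Fabp5 and -0.12 to 0.14 for Slc27a1 in linoleic acid culture and -0.16 to 0.044 for Pnpla2 in control culture. Over both cultures they were -0.015 to 0.081 for Acsl5, -0.071 to 0.040 for Slc27a4 and -0.0065 to 0.18 for Scarb1. The cause of these changes was not tested. Cd36, Slc27a1 and the pathway genes Gpihbp1, Pnpla3, Plin4, Cidec and Acsl6 lay within the range of the chemosensory receptor genes, and small changes in them would be hard to see.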
